A study of Homo sapiens with 6 samples.

Results

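The genes of MHC class I and class II antigen presentation were followed in MOLM-13 cells after knockdown of LAMP5. They were chosen as a list of 33 named genes, 15 of class I and 18 of class II, out of the 39771 gene rows of the deposited table, and each symbol was matched to 1 Ensembl identifier of the primary assembly. MOLM-13 is an established human acute myeloid leukaemia line that carries the MLL-AF9 translocation. The shLAMP5 group held 4 libraries from cells given a lentiviral hairpin, a short RNA that silences its target, directed at LAMP5 (a relative of the lysosomal membrane proteins LAMP1 and LAMP2), and the shNT group held 2 libraries from cells given a non-targeting hairpin. All cells were of the 1 line, grown in serum-containing medium and selected with puromycin, and both groups carried a lentiviral hairpin. The labels give neither the hairpin sequence nor the harvest time of a single shLAMP5 library, so the group may mix them. They name no separate cultures either, and a p-value here sets the groups against library-to-library spread that may be only technical.

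Class I molecules are a heavy chain (HLA-B, HLA-C and the less variable HLA-E, HLA-F and HLA-G) bound to the light chain B2M, and they show peptides made in the cytosol to CD8 T cells and to natural killer cell receptors. The peptides are pumped into the endoplasmic reticulum by TAP1 and TAP2, loaded with the help of TAPBP and TAPBPL, and trimmed by the aminopeptidases ERAP1 and ERAP2, and NLRC5 is the co-activator of class I gene transcription. Class II molecules (HLA-DR, HLA-DQ and HLA-DP) show peptides from endosomes to CD4 T cells. They travel with the invariant chain CD74 and are loaded by HLA-DM under the control of HLA-DO, and their transcription needs the RFX complex (RFX5, RFXAP and RFXANK) and the co-activator CIITA.

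The level of an HLA gene in this table is uncertain, because the MHC region has several alternative sequences and each can carry its own gene identifier. GENCODE 29, an annotation of a later genome build than the submitters', lists transcripts off the primary assembly for 19 of the 33 genes, among them 48 of HLA-B against 10 on the primary assembly, 81 of HLA-C against 10, and 19 of HLA-DRA against 2. It lists none for the other 14, which are TAPBPL, ERAP1, ERAP2, NLRC5, CD1D, MR1, HLA-DRB5, CD74, CIITA, RFX5, RFXAP, RFXANK, IFI30 and MARCHF1. The table held 1812 rows under identifiers that GENCODE places off the primary assembly and that no table used here names, of which 16 reached 100 TPM or more in every library (TPM is a length-corrected share of a library's RNA). Reads of an HLA gene may be counted in such rows, so a low value of a gene with such transcripts is the level of 1 row and not of the gene. The HLA-E row had the same 6 values as 2 other rows.

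The stretches before the start sites of 6 genes are printed here because they carry the letters searched for or belong to the most abundant genes. They are the 200 bases before the RefSeq start (GRCh38.p14), 5′ to 3′ on the gene's strand, with matches in capitals. The capitals mark CCAAT in either orientation (the core of the Y box, bound by NF-Y), GAANNGAAA, or GAAA, any 2 bases and GAAA, in either orientation (both cores of the interferon-stimulated response element, which can overlap), and AGNAACA followed within 10 to 40 bases by ATTGG on 1 strand (X box core and Y box, which overlaps the CCAAT search). The longer core was added after the first had been counted.
B2M (chr15:44711317-44711516, plus strand): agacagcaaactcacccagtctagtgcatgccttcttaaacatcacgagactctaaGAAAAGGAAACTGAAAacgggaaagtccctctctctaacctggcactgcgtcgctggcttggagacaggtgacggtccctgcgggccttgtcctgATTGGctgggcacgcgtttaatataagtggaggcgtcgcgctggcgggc
HLA-B (chr6:31357180-31357379, minus strand): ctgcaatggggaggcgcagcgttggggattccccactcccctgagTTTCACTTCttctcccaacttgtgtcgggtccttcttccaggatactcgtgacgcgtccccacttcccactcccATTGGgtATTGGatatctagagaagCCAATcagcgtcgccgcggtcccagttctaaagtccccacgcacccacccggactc
HLA-C (chr6:31272093-31272292, minus strand): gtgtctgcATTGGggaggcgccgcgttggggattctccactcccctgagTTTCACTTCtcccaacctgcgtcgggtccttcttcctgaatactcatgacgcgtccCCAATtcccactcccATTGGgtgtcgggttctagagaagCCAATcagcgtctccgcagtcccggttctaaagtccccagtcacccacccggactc
CD74 (chr5:150412911-150413110, minus strand): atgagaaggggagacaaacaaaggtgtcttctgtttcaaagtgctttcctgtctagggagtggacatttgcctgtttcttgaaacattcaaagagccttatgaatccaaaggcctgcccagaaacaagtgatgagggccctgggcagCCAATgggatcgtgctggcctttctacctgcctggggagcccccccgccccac
HLA-DQB1 (chr6:32666658-32666857, minus strand): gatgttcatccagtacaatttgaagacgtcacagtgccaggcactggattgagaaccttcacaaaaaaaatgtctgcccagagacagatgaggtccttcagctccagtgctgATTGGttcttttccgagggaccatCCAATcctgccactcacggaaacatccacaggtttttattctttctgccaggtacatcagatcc
HLA-DOA (chr6:33009592-33009791, minus strand): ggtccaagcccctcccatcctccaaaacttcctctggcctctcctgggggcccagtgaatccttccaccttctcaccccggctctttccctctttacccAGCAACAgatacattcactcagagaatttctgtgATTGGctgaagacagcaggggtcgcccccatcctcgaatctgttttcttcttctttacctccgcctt

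In the 250 bases before the start, CCAAT was present in 9 of 11 windows of the class II HLA genes (81.8%), in 13 of 23 windows of all class II genes (56.5%) and in 9 of 21 class I windows (42.9%), against 32.0% of all 35116 RefSeq windows. GAANNGAAA was present in 7 of 21 class I windows (33.3%) and 1 of 23 class II windows (4.35%), against 6.56% of all windows. The longer core was present in 6 class I windows (28.6%) and 1 class II window (4.35%), against 3.02% of all windows. The X and Y arrangement as spelled was found in 1 member window, that of HLA-DOA, and in 0.424% of all windows. The table held 29 of the 33 genes, some with more than 1 window. HLA-E, NLRC5, HLA-DRA and CIITA were not among them. In the printed sequences the shorter core stands 155 to 147 bases before the start of HLA-B and 151 to 143 bases before that of HLA-C, B2M has 2 overlapping copies of the longer core between 144 and 129 bases before its start, and HLA-DOA has the X and Y arrangement between 101 and 63. In CD74 and HLA-DQB1 only CCAAT is marked. The CD74 sequence also holds AGAAACA, which fits AGNAACA, shortly before its CCAAT. It is not marked, because the search asked for ATTGG on the same strand as AGNAACA. Other spellings of the X box were not searched for. A match describes the letters and not a bound site.

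LAMP5 itself measured 80.6, 65.6, 68.8 and 86.7 TPM in shLAMP5 1 to 4 and 170 and 282 TPM in shNT 1 and 2, in the direction of the labels, though its log2 fold change of -1.54 did not pass the test (limma adjusted p 0.252). The myeloid markers CD33 (61.7 to 141 TPM), FLT3 (50.6 to 145 TPM) and SPI1 (205 to 466 TPM) were present in every library. The 8 myeloid markers summed to 486 to 920 TPM in shLAMP5 and 525 to 542 TPM in shNT, and their log2 fold changes, 6 of them positive against 49.3% of all genes, had a median of 0.56. ANPEP, a surface aminopeptidase, was higher at an unadjusted p under 0.05 (log2 fold change 0.84, limma adjusted p 0.520), while MPO had -0.80. In ANPEP and CSF1R (1.16), 2 of the 8 markers, every shLAMP5 library was above both shNT libraries, against 8.25% of all genes. The part of these markers in the members' values was not tested. Summed over 4 T cell markers the level was 1.89 to 8.76 TPM in shLAMP5 and 2.27 to 3.85 TPM in shNT, and over 4 dendritic cell markers 1.32 to 4.42 TPM in shLAMP5 and 1.27 to 2.04 TPM in shNT. Over 5 markers of packaging cells and fibroblasts it was 26.7 to 37.4 TPM in shLAMP5 and 29.01 to 31.5 TPM in shNT. MS4A1 (a B cell marker), CD3E and CLEC9A were at 0 in at least 1 library and at most 0.304 TPM in any, and the highest genes of the 3 lists reached 1.25 TPM (CD79A, B cell), 8.41 TPM (CD3D, T cell) and 3.57 TPM (CD1C, dendritic cell), each in shLAMP5 3. The library shLAMP5 2 stood apart: 1 row with no gene name held 7.26% of its total, against 1.72% to 2.41% in the other libraries. Its median scaling factor was 0.820, against 0.972 to 1.04. Over the genes tested its values ranked most like those of shNT 1 (Spearman correlation 0.957). The correlation was 0.942 with shLAMP5 3, 0.93 with shLAMP5 4, 0.928 with shLAMP5 1 and 0.924 with shNT 2. Where leaving shLAMP5 2 out moved a member's log2 fold change by over 1.5 times, both values are given with the gene or in the closing section. Read depth is unknown, since TPM keeps no read number.

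Levels differed widely between the genes. B2M was the most abundant member, at 1633 to 2928 TPM, followed by CD74 at 197 to 355 TPM, IFI30 at 53.0 to 460 TPM and RFXANK at 89.5 to 132 TPM. TAPBP, MR1, ERAP1, NLRC5 and RFX5 lay between 16.5 and 52.1 TPM in every library. TPM is per transcript length, so the levels of these rows can be set side by side. B2M and TAPBP have transcripts off the primary assembly (14 and 42), so their levels are those of 1 row each. At the other end, 10 genes stayed below 1 TPM in every library and were not tested: HLA-F, HLA-G, HLA-DRA, HLA-DRB1, HLA-DRB5, HLA-DQA1, HLA-DPA1, HLA-DPB1, HLA-DOA and CIITA. HLA-DRA, the invariant alpha chain of HLA-DR, was listed at 0 in all 6 libraries. CIITA, the co-activator without which class II genes are not transcribed, measured 0.267, 0.291, 0.677 and 0.394 TPM in shLAMP5 1 to 4 and 0.697 and 0.334 TPM in shNT 1 and 2, with overlapping groups. Both groups thus had abundant transcripts of the invariant chain and of the RFX subunits RFXANK and RFX5, while CIITA and most class II chain rows were very low and the RFXAP subunit lay between 1.46 and 4.39 TPM. Of the untested genes, HLA-DQA1 reached 0.245 TPM and HLA-DPA1 0.141 TPM, and the highest value of the other class II HLA rows among them was 0.119 TPM, in HLA-DRB1. HLA-F and HLA-G reached at most 0.0923 and 0.0201 TPM.

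**Figure D1:**
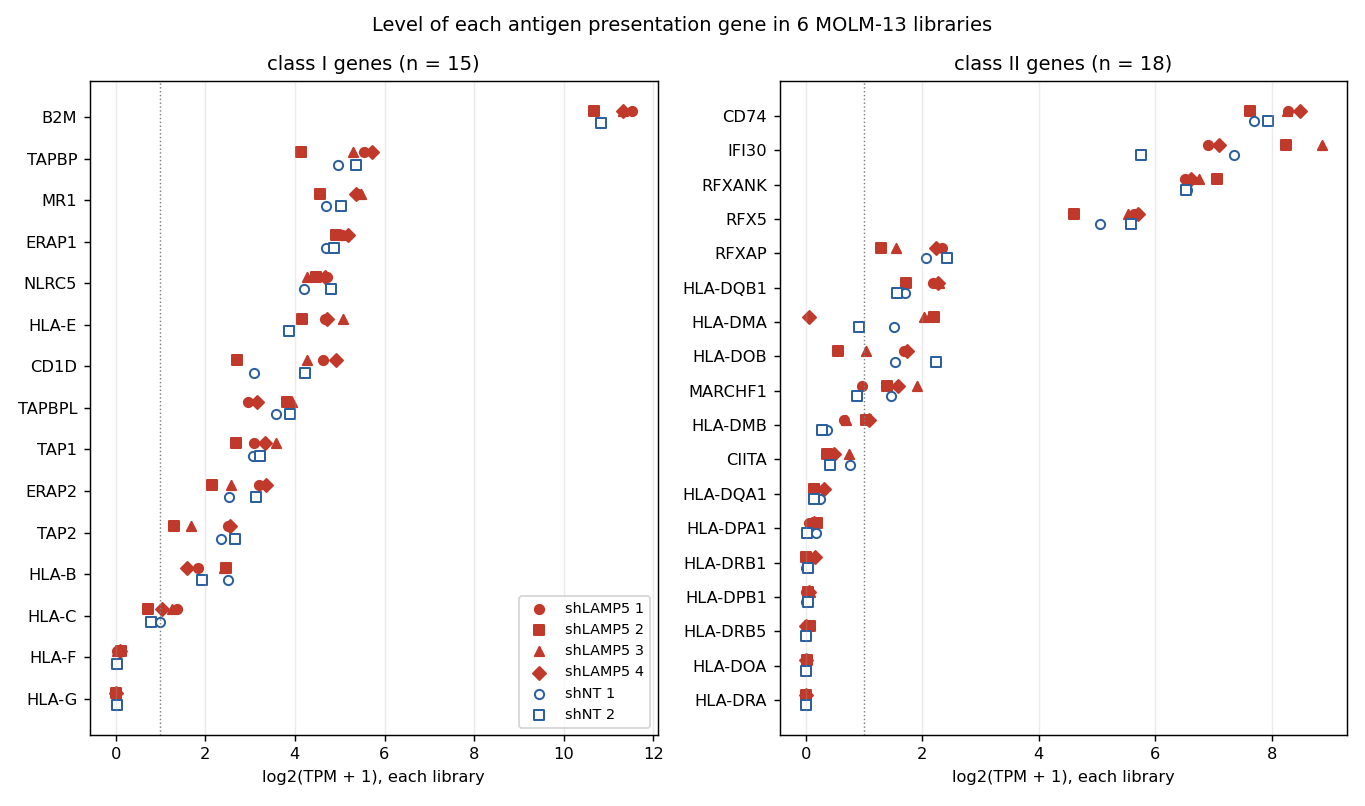
Level of each of the 15 class I and 18 class II genes as log2(TPM + 1) on the horizontal axis, with 1 symbol per library (filled red, shLAMP5 1 to 4; open blue, shNT 1 and 2) and a dotted line at 1 TPM. B2M (1633 to 2928 TPM) and CD74 (197 to 355 TPM) lie far to the right, and 10 genes lie left of the line in every library.

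The test compared shLAMP5 with shNT by limma on log2(TPM + 1) over the 13072 genes that reached 1 TPM in 2 or more libraries, and 23 of the 33 members were among these. No member passed an adjusted p of 0.05 in either direction, and no gene of the whole table did (0.0% higher and 0.0% lower). At an unadjusted p under 0.05, 1 of 23 members was higher, HLA-E, against 3.72% of all genes, and 0 members were lower, against 5.25% of all genes. For 4 members, every shLAMP5 library was above both shNT libraries (HLA-E, ERAP1, HLA-DQB1 and HLA-DMB), against 8.25% of all genes tested, and for 0 members every one was below both, against 13.5% of all genes. Without shLAMP5 2 the first of these counts was 9, against 22.2% of all genes. A positive log2 fold change was found in 17 of 23 members, 9 of 13 of class I and 8 of 10 of class II, against 49.3% of all genes. HLA-C and HLA-DMB reached 1 TPM in shLAMP5 libraries alone. Both thus entered the counts and medians here only through the group where they were higher, and their inclusion is no support for a shift. Over the 12 members tested that have no transcript off the primary assembly, 9 were positive and the median was 0.233. The median log2 fold change was 0.031 over the 13 class I genes tested, 0.32 over the 10 class II genes tested and -0.006 over all genes. The class I median was 0.319 without shLAMP5 2, 0.283 without shNT 2 and -0.054 without shNT 1, while the class II median stayed between 0.221 and 0.384 when any 1 library was left out. The class II medians without shLAMP5 2 and without shLAMP5 4 leave out HLA-DMB, which fell below the filter there. With no filter on low values the class II median was 0.042.

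**Figure D2:**
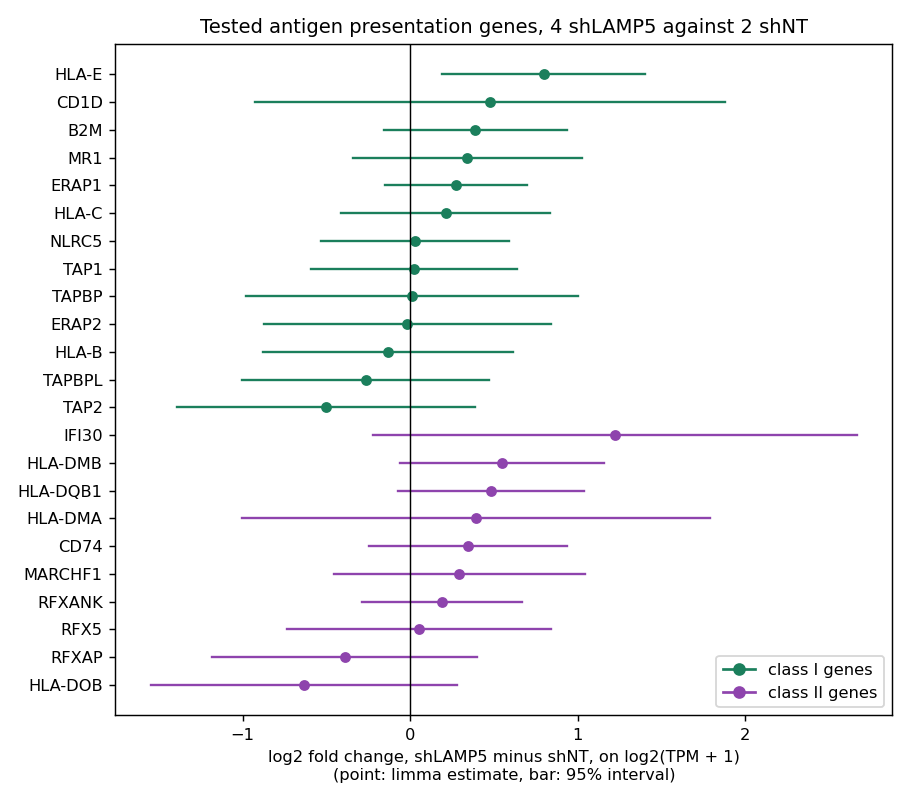
Log2 fold change (shLAMP5 minus shNT, on log2(TPM + 1)) of the 13 class I genes (green) and 10 class II genes (purple) tested, each with its 95% interval from limma. The interval of HLA-E, 0.19 to 1.40, is the 1 interval of the 23 that lies on a single side of 0.

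Among the class I heavy chains, the HLA-E row was the 1 member with an unadjusted p under 0.05. HLA-E, which presents leader peptides to the NKG2 receptors of natural killer cells, measured 24.5, 16.9, 32.7 and 25.1 TPM in shLAMP5 1 to 4 and 13.3 and 13.7 TPM in shNT 1 and 2. Every shLAMP5 library lay above both shNT libraries, and the means were 24.8 ± 6.44 TPM (SD, n = 4) in shLAMP5 and 13.5 ± 0.231 TPM (SD, n = 2) in shNT, or 184% of the shNT mean. The log2 fold change was 0.80 (SE 0.26, limma adjusted p 0.505). The exact two-sided permutation p of HLA-E was 0.0667, the smallest that the 15 splits of 6 libraries into 2 and 4 allow. Leaving out any 1 library kept its log2 fold change between 0.656 and 0.96, and scaling by the median kept it at 0.827. HLA-B, a classical heavy chain that presents to CD8 T cells, had 2.60, 4.53, 4.38 and 2.03 TPM in its row in shLAMP5 1 to 4 and 4.71 and 2.80 TPM in shNT 1 and 2, and its groups overlapped. The row of HLA-C, the other classical heavy chain here, measured 1.58, 0.663, 1.38 and 1.06 TPM in shLAMP5 1 to 4 and 0.988 and 0.721 TPM in shNT 1 and 2, again with overlap and a log2 fold change of 0.21 (0.365 with a pseudocount of 0.1, 0.332 without shLAMP5 2, 0.121 without shLAMP5 1 and 0.107 without shNT 2). In bulk RNA, a difference in the share of cells that express a gene cannot be told apart from one in the level per cell. These rows hold 1 identifier each of genes with many copies, and no level of the HLA-B or HLA-C gene is drawn from them.

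B2M, the light chain that every class I heavy chain needs, measured 2928, 1633, 2578 and 2554 TPM in shLAMP5 1 to 4 and 1796 and 1822 TPM in shNT 1 and 2. In 3 of the 4 shLAMP5 libraries it was above both shNT libraries, and shLAMP5 2 was the lowest of all 6. Its log2 fold change came to 0.39 (SE 0.24; 95% interval -0.16 to 0.93, limma adjusted p 0.656), and it was 0.567 without shLAMP5 2 (limma adjusted p 0.137). The class I-like molecules MR1 and CD1D divided the libraries in the same way. MR1, which shows vitamin B metabolites to MAIT cells, measured 41.2, 22.5, 43.8 and 40.1 TPM in shLAMP5 1 to 4 and 24.8 and 31.6 TPM in shNT 1 and 2. CD1D, which shows lipids to NKT cells, measured 23.8, 5.53, 18.4 and 29.2 TPM in shLAMP5 1 to 4 and 7.44 and 17.8 TPM in shNT 1 and 2. In both genes shLAMP5 2 was the lowest library and the other 3 shLAMP5 libraries lay above both shNT libraries. CD1D had a log2 fold change of 0.48 that became -0.103 without shNT 1, 1.06 without shNT 2, 0.952 without shLAMP5 2, 0.310 without shLAMP5 1 and 0.216 without shLAMP5 4, and MR1 had 0.34 (0.171 without shNT 1 and 0.556 without shLAMP5 2), with limma adjusted p of 0.846 for CD1D and 0.766 for MR1.

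The peptide supply and loading genes differed among themselves. TAP1 and TAP2 form 1 transporter, yet TAP2 measured 4.65, 1.46, 2.20 and 4.88 TPM in shLAMP5 1 to 4 and 4.09 and 5.35 TPM in shNT 1 and 2, while TAP1 measured 7.51, 5.46, 10.9 and 9.01 TPM in shLAMP5 1 to 4 and 7.41 and 8.34 TPM in shNT 1 and 2. TAP2 was low in shLAMP5 2 and shLAMP5 3 and within the shNT range in the other 2 shLAMP5 libraries, and TAP1 had its lowest and highest values in shLAMP5 2 and shLAMP5 3. The log2 fold changes were -0.50 for TAP2 (SE 0.39, limma adjusted p 0.720) and 0.021 for TAP1 (SE 0.27, limma adjusted p 0.990), and that of TAP2 was -0.265 without shLAMP5 2. TAPBP, the tapasin that bridges the transporter and the heavy chain, measured 45.9, 16.5, 38.3 and 52.1 TPM in shLAMP5 1 to 4 and 30.3 and 40.3 TPM in shNT 1 and 2, and shLAMP5 2 was again the lowest library. Its relative TAPBPL, a peptide editor, was instead lowest in shLAMP5 1 and shLAMP5 4, with 6.75, 13.3, 14.4 and 7.97 TPM in shLAMP5 1 to 4 and 11.0 and 13.9 TPM in shNT 1 and 2. TAPBPL had a log2 fold change of -0.27 (SE 0.32, limma adjusted p 0.833), which was -0.093 without shLAMP5 1, -0.163 without shLAMP5 4, -0.109 without shNT 2, -0.423 without shLAMP5 3 and -0.424 without shNT 1.

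The trimming enzyme ERAP1 measured 32.3, 29.4, 32.6 and 35.6 TPM in shLAMP5 1 to 4 and 25.1 and 28.2 TPM in shNT 1 and 2, so that the groups did not overlap. Its log2 fold change was 0.27 (SE 0.18, limma adjusted p 0.684), with an exact two-sided permutation p of 0.0667, the smallest the design allows. ERAP2, its partner enzyme, measured 8.12, 3.41, 4.92 and 9.24 TPM in shLAMP5 1 to 4 and 4.78 and 7.77 TPM in shNT 1 and 2, with a log2 fold change of -0.018 (SE 0.37, limma adjusted p 0.993). NLRC5 measured 25.4, 21.3, 18.3 and 24.6 TPM in shLAMP5 1 to 4 and 17.4 and 27.1 TPM in shNT 1 and 2. The shLAMP5 values of NLRC5 all lay between the 2 shNT values, and its log2 fold change came to 0.031 (SE 0.24; 95% interval -0.53 to 0.59). The signs of NLRC5, TAP1, TAPBP and ERAP2 each turned when some single library was left out, and that of ERAP2 also under median scaling.

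On the class II side, the largest log2 fold change on log2(TPM + 1) was that of IFI30 (with a pseudocount of 0.1 it was that of the low HLA-DMB row), the thiol reductase of endosomes and lysosomes that unfolds antigens and is induced by interferon gamma. IFI30 measured 118, 301, 460 and 135 TPM in shLAMP5 1 to 4 and 161 and 53.0 TPM in shNT 1 and 2. The groups overlapped, since shNT 1 lay above shLAMP5 1 and shLAMP5 4. The means were 254 ± 161 TPM (SD, n = 4) in shLAMP5 and 107 ± 76.2 TPM (SD, n = 2) in shNT, with a log2 fold change of 1.22 (SE 0.63, limma adjusted p 0.598) that became 0.431 without shNT 2 and 2.02 without shNT 1. Beside it, 16 of 17 interferon-stimulated genes were tested, and their mean log2(TPM + 1) was 2.53, 3.99, 4.09 and 3.08 in shLAMP5 1 to 4 and 3.73 and 2.05 in shNT 1 and 2. Summed over the list these genes held 204 to 406 TPM in shLAMP5 and 89.5 to 305 TPM in shNT. Both IFI30 and that list were highest in shLAMP5 3 and lowest in shNT 2, and the part of interferon-stimulated expression in the IFI30 result was not tested.

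CD74, the invariant chain that fills and escorts class II molecules, measured 309, 197, 304 and 355 TPM in shLAMP5 1 to 4 and 204 and 244 TPM in shNT 1 and 2. As with B2M, 3 shLAMP5 libraries lay above both shNT libraries and shLAMP5 2 lay below both. Its log2 fold change came to 0.35 (SE 0.26; 95% interval -0.24 to 0.94, limma adjusted p 0.708), and it was 0.525 without shLAMP5 2 (limma adjusted p 0.194) and 0.22 without shNT 1. HLA-DQB1, a class II beta chain, measured 3.55, 2.30, 3.89 and 3.84 TPM in its row in shLAMP5 1 to 4 and 2.24 and 1.97 TPM in shNT 1 and 2. Its groups did not overlap, though shLAMP5 2 lay close to shNT 1, and its log2 fold change was 0.48 (SE 0.24, limma adjusted p 0.591). HLA-DQB1 was the 1 class II chain gene of the DR, DQ and DP sets whose row passed the filter, and its partner HLA-DQA1 did not.

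The peptide editor HLA-DM and its inhibitor HLA-DO gave low rows. HLA-DMB measured 0.578, 1.05, 0.626 and 1.12 TPM in shLAMP5 1 to 4 and 0.285 and 0.213 TPM in shNT 1 and 2, with no overlap of the groups and a log2 fold change of 0.55 (SE 0.26 and limma adjusted p 0.583). HLA-DMB passed the filter only through shLAMP5 2 and shLAMP5 4. The mean HLA-DMB row was 339% of the shNT mean, and its log2 fold change was 0.822 with a pseudocount of 0.5 and 1.395 with 0.1. Its partner HLA-DMA measured 3.50, 3.57, 3.07 and 0.0388 TPM in shLAMP5 1 to 4 and 1.86 and 0.895 TPM in shNT 1 and 2. In 3 of the shLAMP5 libraries HLA-DMA was above both shNT libraries, and in shLAMP5 4 it was almost absent from its row. Its log2 fold change was 0.39 (SE 0.605), and with 1 library left out it ranged from 0.097 without shNT 2 to 0.912 without shLAMP5 4, with 0.207 without shLAMP5 1, 0.199 without shLAMP5 2, 0.255 without shLAMP5 3 and 0.689 without shNT 1, and with a pseudocount of 0.1 it was 0.155. HLA-DOB measured 2.21, 0.465, 1.05 and 2.35 TPM in shLAMP5 1 to 4 and 1.91 and 3.71 TPM in shNT 1 and 2, with a log2 fold change of -0.63 (SE 0.40, limma adjusted p 0.663) and overlapping groups. That of HLA-DOB was -0.286 without shNT 2, -0.4 without shLAMP5 2, -0.983 without shNT 1 and -0.998 with a pseudocount of 0.1. MARCHF1, the ubiquitin ligase that removes class II molecules from the cell surface, measured 0.963, 1.64, 2.78 and 1.99 TPM in shLAMP5 1 to 4 and 1.78 and 0.835 TPM in shNT 1 and 2, again with overlap.

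The RFX subunits, which sit on the X box of class I and class II promoters, did not share an order of libraries. RFX5 measured 48.3, 23.2, 45.2 and 51.3 TPM in shLAMP5 1 to 4 and 32.2 and 46.6 TPM in shNT 1 and 2, with a log2 fold change of 0.052 (SE 0.34, limma adjusted p 0.977). RFXANK measured 89.5, 132, 106 and 97.0 TPM in shLAMP5 1 to 4 and 92.6 and 90.8 TPM in shNT 1 and 2, with a log2 fold change of 0.19 (SE 0.21, limma adjusted p 0.814) that was 0.084 without shLAMP5 2. RFX5 was lowest and RFXANK highest in shLAMP5 2. RFXAP measured 4.06, 1.46, 1.94 and 3.71 TPM in shLAMP5 1 to 4 and 3.19 and 4.39 TPM in shNT 1 and 2, with low values in shLAMP5 2 and shLAMP5 3 and a log2 fold change of -0.39 (SE 0.34, limma adjusted p 0.767) that was -0.204 without shLAMP5 2 and -0.209 without shNT 2.

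**Figure D3:**
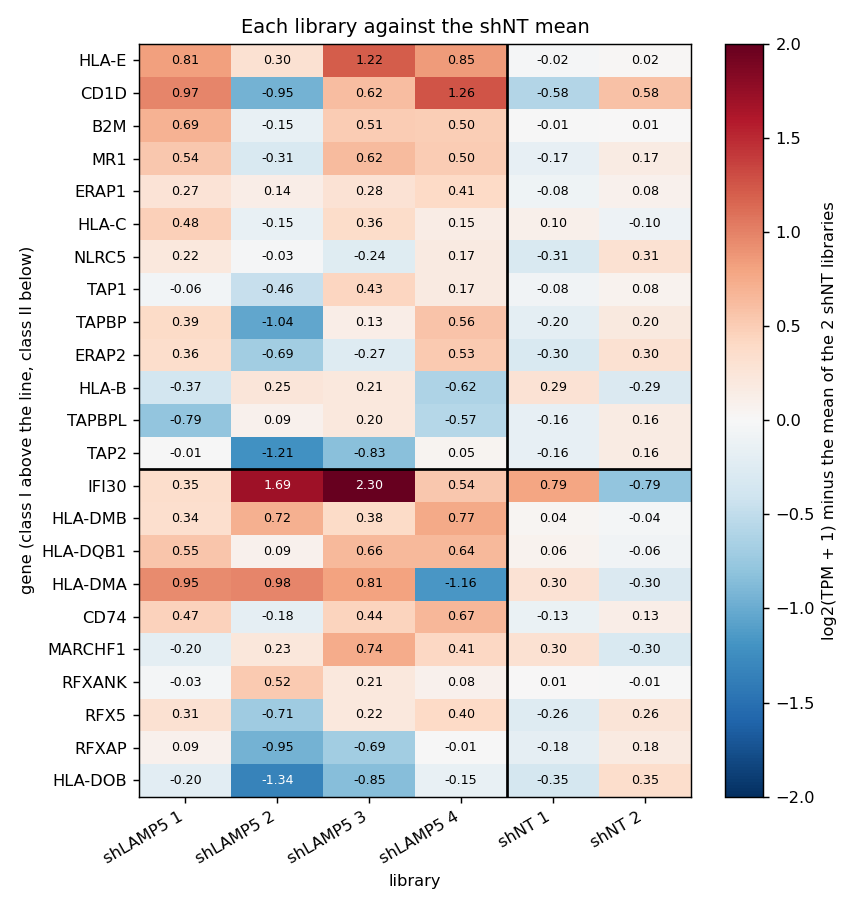
Each library's log2(TPM + 1) minus the mean of the shNT libraries, for the 23 members tested (rows; class I above the line, class II below) in shLAMP5 1 to 4 and shNT 1 and 2 (columns; red is higher, blue is lower). TAP2, RFXAP and HLA-DOB are blue in shLAMP5 2 and shLAMP5 3 and closer to 0 in shLAMP5 1 and shLAMP5 4, while B2M, CD74, CD1D, MR1, TAPBP and RFX5 are blue in shLAMP5 2 alone among the shLAMP5 libraries.

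Much of the variation thus lay between libraries of the same group. In IFI30 and HLA-B the libraries shLAMP5 2, shLAMP5 3 and shNT 1 were all above shLAMP5 1, shLAMP5 4 and shNT 2. In TAP2, ERAP2, RFXAP and HLA-DOB they were all below. This split crossed the groups, other members such as B2M and HLA-E did not follow it, and its source was not tested. The library shLAMP5 2 was the lowest of all 6 for 12 of the 23 members tested, 8 of 13 of class I and 4 of 10 of class II, against 44.4% of all genes tested, and the highest for 2 members, against 13.7% of all genes. The median deviation from the shNT mean over the class I genes was 0.358, -0.154, 0.282 and 0.406 in shLAMP5 1 to 4, and over the class II genes it was 0.324, 0.157, 0.412 and 0.401. Over all genes tested it was 0.048, -0.21, 0.035 and 0.041. Both classes were above the shNT mean in shLAMP5 1, 3 and 4, and in shLAMP5 2 they split, with class I below and class II above, while the median gene of that library was also below.

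Ratios of 2 genes within a library do not depend on how the library was scaled. The ratio of B2M to CD74 was 9.47, 8.30, 8.49 and 7.20 in shLAMP5 1 to 4 and 8.79 and 7.46 in shNT 1 and 2, with means of 8.36 ± 0.930 in shLAMP5 (SD, n = 4) and 8.13 ± 0.935 in shNT (SD, n = 2). The class I light chain and the class II invariant chain thus had overlapping ratios in the groups. The ratio of TAP1 to TAP2 was 1.62, 3.74, 4.97 and 1.85 in shLAMP5 1 to 4 and 1.81 and 1.56 in shNT 1 and 2, so that shLAMP5 2 and shLAMP5 3 stood above the other 4 libraries. It is a ratio of single rows of genes with transcripts off the primary assembly. The ratio of ERAP1 to ERAP2 was also highest in those libraries, at 8.61 and 6.62, against 3.97 and 3.85 in shLAMP5 1 and 4 and 5.25 and 3.63 in shNT 1 and 2. The ratio of RFXANK to RFX5 was 5.67 in shLAMP5 2, between 1.85 and 2.34 in the other shLAMP5 libraries, and 2.87 and 1.95 in shNT 1 and 2. That of RFX5 to RFXAP was 11.9, 15.9, 23.3 and 13.8 in shLAMP5 1 to 4 and 10.1 and 10.6 in shNT 1 and 2, above both shNT libraries in every shLAMP5 library. These pairs were chosen after the values were seen, and no test was run on them.

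**Figure D4:**
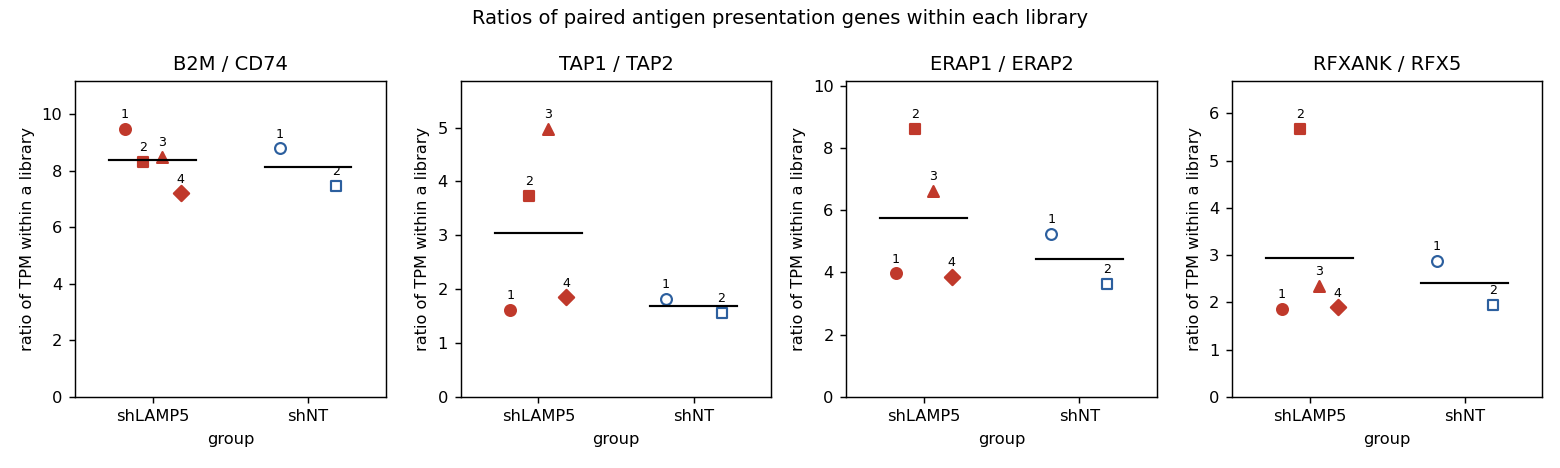
Ratio of TPM within each library for 4 pairs of genes in shLAMP5 (red, numbered 1 to 4) and shNT (open blue, numbered 1 and 2), with a black line at each group mean and axes that start at 0. B2M to CD74 spans 7.20 to 9.47 over all libraries, and TAP1 to TAP2 reaches 3.74 and 4.97 in shLAMP5 2 and 3 against at most 1.85 in the other 4 libraries.

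Genes that serve the same pathway but are not in the list were described step by step. Of the endosomal proteases that cut antigens and the invariant chain, 6 of 7 were tested, 5 had a positive log2 fold change, against 49.3% of all genes, and the median was 0.62. At an unadjusted p under 0.05, 3 were higher, against 3.72% of all genes, and none passed after adjustment. CTSD, an aspartic protease of lysosomes, measured 521 ± 189 TPM in shLAMP5 (SD, n = 4) and 198 ± 17.7 TPM in shNT (SD, n = 2), a difference of 1.32 on the log2 scale (limma adjusted p 0.491). CTSS, which makes the last cut of the invariant chain in antigen-presenting cells, measured 195 ± 45.4 TPM in shLAMP5 and 118 ± 12.1 TPM in shNT, a difference of 0.69 on the log2 scale (limma adjusted p 0.524). In both, no shLAMP5 library lay within or below the shNT values, which held for 2 of the 6 tested against 8.25% of all genes. CTSL had a log2 fold change of -0.18 with overlapping groups.

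The immunoproteasome genes and the PA28 activator, which shape the peptides that TAP carries, had negative values in 6 of 6, while 49.3% of all genes were positive. The median was -0.18, with -0.047 for PSMB10 and -0.054 for PSMB9, and none passed the test. PSME2, a PA28 subunit, measured 152 ± 32.9 TPM in shLAMP5 and 216 ± 55.0 TPM in shNT, a difference of -0.51 on the log2 scale (limma adjusted p 0.598), and PSME1, its partner subunit, had -0.24. Of the 5 chaperones and translocon genes, 3 had positive values, against 49.3% of all genes, and the median was 0.044. PDIA3, a disulfide isomerase of the peptide-loading complex, had 0.21 and UGGT1, a folding sensor, had -0.10, with none past the test. Of the 4 partners that bind the same promoters as RFX, all had negative values, down to a small -0.024 for CREB1, while 49.3% of all genes were positive. NFYA, a subunit of the NF-Y factor whose core CCAAT is marked in the printed sequences, measured 29.2 ± 2.92 TPM in shLAMP5 and 42.2 ± 0.368 TPM in shNT. Its log2 fold change was -0.52 (limma adjusted p 0.520). All shLAMP5 libraries were below both shNT libraries in this 1 of the 4 partners, against 13.5% of all genes.

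Of the 8 interferon gamma pathway genes, all had positive values, against 49.3% of all genes, with a median of 0.41, and none passed. IFNGR1, the ligand-binding receptor chain, measured 85.2 ± 29.9 TPM in shLAMP5 and 51.1 ± 2.41 TPM in shNT, and IRF2, a transcription factor that shares sites with IRF1, 13.5 ± 2.59 TPM in shLAMP5 and 9.50 ± 0.0459 TPM in shNT. For IFNGR1 and IRF2 the lowest shLAMP5 value exceeded the highest shNT value, and the log2 fold changes were 0.66 and 0.44. These were 2 of the 8 genes, against 8.25% of all genes. IRF1, which acts on class I promoters, had a log2 fold change of 0.006, and SOCS1 had 0.021. Of the 16 interferon-stimulated genes tested, all had positive values, against 49.3% of all genes, with a median of 0.39, and 3 were higher at an unadjusted p under 0.05, against 3.72% of all genes. Their mean log2(TPM + 1) was 3.99, 4.09 and 3.73 in shLAMP5 2, shLAMP5 3 and shNT 1. It was 2.53, 3.08 and 2.05 in shLAMP5 1, shLAMP5 4 and shNT 2. The list mean was thus split across the groups, though single genes such as IFI6 were not, and the source of the split was not tested. Of the 16, IFIT1, IFIT2 and IFIT3 had lower mean TPM in shLAMP5, at 79.1%, 81.8% and 91.9% of the shNT means. IFI6 and MX2 had the smallest p of the list, with log2 fold changes of 2.16 (limma adjusted p 0.252) and 0.91 (limma adjusted p 0.518).

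Of 11 MHC-like molecules and natural killer cell ligands, 7 were tested and 4 of these had positive values, against 49.3% of all genes. The median was 0.28, and none passed the test. FCGRT, the heavy chain of the neonatal Fc receptor, which also pairs with B2M, measured 179, 54.3, 152 and 179 TPM in shLAMP5 1 to 4 and 46.2 and 79.3 TPM in shNT 1 and 2, a difference of 1.06 on the log2 scale (limma adjusted p 0.576) with shLAMP5 2 inside the shNT range. MICB, a stress ligand of the receptor NKG2D that is encoded in the MHC region like the HLA genes, measured 1.28 ± 0.370 TPM in shLAMP5 and 2.75 ± 0.0537 TPM in shNT, with all shLAMP5 libraries below both shNT libraries, and its log2 fold change was -0.73 (limma adjusted p 0.505). ULBP3, another NKG2D ligand, also lay below in all 4, with a log2 fold change of -0.55. These were 2 of the 7 tested, against 13.5% of all genes. The MICB value is that of 1 row, and its transcripts off the primary assembly were not counted. MICA was listed at 0 in every library. Of 6 co-stimulation and checkpoint genes, 4 were tested and all 4 had positive values, against 49.3% of all genes, with CD80 at 0.034. CD86, which co-stimulates T cells through CD28, measured 16.5, 27.8, 60.1 and 27.6 TPM in shLAMP5 1 to 4 and 19.4 and 8.53 TPM in shNT 1 and 2, with overlap through shLAMP5 1 and a difference of 1.13 on the log2 scale (limma adjusted p 0.554). CD274 and PDCD1LG2, the ligands of PD-1, stayed at or below 0.286 TPM.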

How the data were processed

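The table holds RNA sequencing values of 6 MOLM-13 libraries, and each library's group was taken from its title. The authors deposited TPM values per Ensembl gene identifier, and the unit was read from the values, since column sums ran from 897026 to 912565. Per the submitters' processing notes, kallisto and hg19 were used; the kallisto version, transcript set and step from transcripts to genes are not stated in what was used here. Identifiers were matched to symbols by a name table (35558 of 39771). No coordinates are given for genes, since the reference at hand is of another build. Promoter sequences come from RefSeq (GRCh38.p14).

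Groups were compared on log2(TPM + 1) with limma 3.58.1 (R 4.3.3, trended prior variance) for genes reaching 1 TPM in 2 or more libraries, with Benjamini-Hochberg adjustment over all 13072 genes and a threshold of 0.05. Fold changes on this scale understate the change of low genes. Exact permutation tests ran over 15 splits. The script was tested on simulated data. Figures were drawn with matplotlib 3.10.9 under Python 3.11.15, and tables were made with numpy 2.4.6 and pandas 2.3.3.

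The members and gene lists were chosen with earlier results of these data known. Full statistics were given to members at or above 5 TPM in at least 1 library: the 3 with the smallest p in each direction and class, with B2M, CD74, CIITA, NLRC5, RFX5 and IFI30. CIITA was too low to test. Values of the other members, also with statistics for HLA-DQB1, HLA-DMA, HLA-DMB, HLA-DOB and RFXAP, are given to account for each. From each other pathway list, 1 or 2 genes per direction with the smallest p were named. CD274, PDCD1LG2, IRF1, IFIT1 to IFIT3 and the markers of cell types were named after their values were seen. Alternatives were other pseudocounts, filters and scalings, limma settings, the replicate number as a block and leaving out each library. Rescaling over protein-coding rows, and the count of members above both shNT libraries with a library left out, were added after the data were seen. The summed level of the B cell markers is not reported here.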

Additional observations from a re-analysis of the deposited data

Results flagged for a closer look

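Among the 23 members tested, 3 had a library far from the rest of the shLAMP5 group on the log2(TPM + 1) scale, with a gap to the nearest library, as a share of the group's range, above Dixon's 95% critical value for 4 samples. Chance alone gives such a gap in about 1 in 20 groups. MR1 measured 22.5 TPM in shLAMP5 2, a gap of 0.869 of the range, and RFX5 measured 23.2 TPM in the same library, a gap of 0.840. HLA-DMA measured 0.0388 TPM in shLAMP5 4, a gap of 0.921, while its partner HLA-DMB was at its highest, 1.12 TPM, in that library. GENCODE 29 lists 70 HLA-DMA transcripts off the primary assembly and 9 on it.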

How the results depend on the processing

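No member passed the threshold under any of the 16 alternatives, with a smallest limma adjusted p of 0.119 (HLA-E without shLAMP5 2). The whole-table count of calls was 0 under all alternatives but these: 14 genes with no filter on low values and 16 with the replicate block. Of 357 pairs of a member and an alternative, 331 kept their direction and 26 did not, and 15 of 23 members kept it wherever they were fitted. Pairs in which a member fell below the filter are not counted, such as HLA-DMB without shLAMP5 2 or without shLAMP5 4. The cause was not tested for any of these changes. With the replicate block, the group difference rests only on the libraries whose number occurs in both groups, as given below.

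The class II median was 0.042 with no filter and 0.192 with the replicate block. When 1 library was left out, the class I median ranged from -0.054 to 0.319 and the class II median from 0.221 to 0.384. The count of members above both shNT libraries was 4 without shLAMP5 3, against 9.13% of all genes, and 9 without shLAMP5 2, against 22.2%. Above the shNT library that remained it was 6 without shNT 1, against 18.4%, and 5 without shNT 2, against 15.8%. The members below the remaining one numbered 4 without shNT 1 and 1 without shNT 2, where the share of all genes was not counted. In the fits a lone shNT library was assumed to vary like the other group. Log2 fold changes that changed sign with a library left out ranged from -0.428 to 0.161 for HLA-B, -0.114 to 0.181 for TAP1, -0.191 to 0.359 for TAPBP, -0.318 to 0.283 for ERAP2, -0.277 to 0.339 for NLRC5, -0.103 to 1.056 for CD1D, -0.207 to 0.311 for RFX5 and -0.005 to 0.593 for MARCHF1. Without shLAMP5 2 the log2 fold change was -0.261 for HLA-B, 0.181 for TAP1, 0.359 for TAPBP, 0.206 for ERAP2, 0.05 for NLRC5 and 0.308 for RFX5. With all libraries HLA-B had -0.134, TAPBP 0.01 and MARCHF1 0.294. TAP1 was -0.004 under quantile normalization, and ERAP2 was 0.006 under median scaling. With the replicate block TAP1 was -0.258, TAPBP -0.327 and RFX5 -0.202. In that block shLAMP5 3 and shLAMP5 4 have no shNT library of the same number. Its group differences, with the class II median above, thus rest on shLAMP5 1 and 2 against shNT 1 and 2. The library shLAMP5 2, which stood apart, weighs as much in them as shLAMP5 1. The numbers in the titles are not stated to pair the libraries, and same-numbered libraries deviated from their group means in opposite directions (Pearson correlation across genes -0.52 for number 1 and -0.474 for number 2, where genes are not replicates). The deviations of shNT 1 and shNT 2 from their shared mean mirror each other, so these correlations are not separate observations. By the same values shLAMP5 1 deviated with shNT 2, and shLAMP5 2 with shNT 1.

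A sum over several identifiers of a symbol was not run, since each member matched 1 identifier. Read depth is unknown, and values of HLA genes are limited to 1 identifier each.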
